A study of Mus musculus with 12 samples.

Results

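The enzymes that build and salvage pyrimidine nucleotides were followed through the 12 libraries as 7 genes, Cad, Dhodh, Umps, Ctps, Ctps2, Uck1 and Uck2, chosen by symbol out of 24982 gene symbols listed per library. All 7 were present in the files and passed the filter on low values in each comparison. The libraries hold polyadenylated RNA of B lymphocytes taken from the spleen of mice 6 weeks old, with 4 libraries per genotype, each described as a biological replicate. The first genotype is WT, of the strain written as C57BL/J6. The second, Eμ-Myc, carries a Myc transgene under the immunoglobulin heavy-chain enhancer, which drives Myc in B-lineage cells. The third, Eμ-Myc; PRPS2 KO (the knockout group below), carries the same transgene and lacks PRPS2, a synthetase of phosphoribosyl pyrophosphate. How PRPS2 was removed, in which cells, and whether the transgenic mice had the WT strain's background are not given in the sources used here. No genotype with the knockout and without the transgene was among the libraries analysed here. P-values rest on the variation between these libraries only.

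Pyrimidine nucleotides arise by a de novo route and by salvage. In the de novo route CAD, a fused protein with carbamoyl phosphate synthetase, aspartate transcarbamylase and dihydroorotase activities, makes dihydroorotate in the cytosol; DHODH oxidises it to orotate at the inner mitochondrial membrane; and UMPS joins orotate to phosphoribosyl pyrophosphate and decarboxylates the product to UMP. After phosphorylation to UTP, the CTP synthases CTPS1 (gene Ctps) and CTPS2 aminate it to CTP. In salvage, the uridine-cytidine kinases UCK1 and UCK2 phosphorylate uridine and cytidine taken up from outside the cell or released from RNA. Proliferating lymphocytes are known to depend on this supply, and CTPS1 in particular is known for its role in lymphocyte proliferation.

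In mm10 coordinates of the GENCODE M21 annotation, the de novo genes are Cad at chr5:31054780-31078479 on the plus strand, Dhodh at chr8:109591343-109608673 on the minus strand and Umps at chr16:33954782-33967038 on the minus strand. The CTP synthase genes are Ctps at chr4:120539868-120570276, minus strand, and Ctps2 at chrX:162901238-163032508, plus strand. The kinase genes are Uck1 at chr2:32255002-32260159 and Uck2 at chr1:167222883-167285320, both on the minus strand. All 7 are annotated as protein coding. The transcripts of Ctps and Ctps2 share no stretch of 50 bases with each other, and neither do those of Uck1 and Uck2, so reads of at least that length that match exactly can be told apart within each pair. Uck1 shares 17.5% of its 50-base stretches with Gm4482 and Umpk-ps. How far this affects its values is not known, because the treatment of multiply mapped reads is not given. Whether the authors counted by strand is not given, and an antisense gene, Gm15829, overlaps 6.11% of the exonic bases of Umps, and the lincRNA gene Gm2453 overlaps 2.75% of those of Uck2.

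Bases just before the transcription start are shown for 4 of the genes, because Cad, Umps and Ctps rose together in the comparisons below while Ctps2, which makes the same product as Ctps, fell. They are the 150 bases before the RefSeq start, from GRCm38.p6, read 5′ to 3′ on the gene's strand, with each CpG in capitals. RefSeq lists 1 start for Cad and Umps, 2 for Ctps and 3 for Ctps2, and the first listed was taken, so the CpG counts below hold for that start only. The Cad stretch is chr5:31054630-31054779, that of Umps chr16:33967039-33967188 (inside an exon of Gm15829 on the other strand), that of Ctps chr4:120570277-120570426, and that of Ctps2 chrX:162902021-162902170, which lies within the gene as GENCODE draws it but in no annotated exon.
Cad: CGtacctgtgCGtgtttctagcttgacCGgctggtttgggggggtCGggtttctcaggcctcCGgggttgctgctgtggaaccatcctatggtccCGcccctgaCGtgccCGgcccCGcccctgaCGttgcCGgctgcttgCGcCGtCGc
Umps: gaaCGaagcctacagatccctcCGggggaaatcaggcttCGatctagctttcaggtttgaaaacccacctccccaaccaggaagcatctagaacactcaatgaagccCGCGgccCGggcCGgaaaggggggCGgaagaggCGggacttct
Ctps: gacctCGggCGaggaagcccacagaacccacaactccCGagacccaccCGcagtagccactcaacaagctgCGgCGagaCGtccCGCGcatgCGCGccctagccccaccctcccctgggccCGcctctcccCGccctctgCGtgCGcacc
Ctps2: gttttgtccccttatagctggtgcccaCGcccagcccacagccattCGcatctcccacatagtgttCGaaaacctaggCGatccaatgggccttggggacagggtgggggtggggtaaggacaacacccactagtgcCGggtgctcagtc

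The Ctps stretch held 15 CpGs, that of Cad 14, that of Umps 9 and that of Ctps2 5, where the median over 32851 listed RefSeq promoter windows was 4. The same stretch held 10 CpGs in Uck1 (the first of 2 listed starts) and 17 in Uck2, which are not printed because GENCODE places part of them in a first exon. Because the printed genes were picked by their direction of change, no relation of CpG number to direction can be read from them, and none was tested. The E-box letters CACGTG, which read the same on both strands, and the related letters CACGCG with their reverse complement CGCGTG, were searched in windows from 250 bases before to 50 bases after the start. CACGTG was present in 7.15% of all windows and CACGCG or CGCGTG in 9.27%, and neither was found in the windows of the 6 genes that have one; Dhodh is not listed in the promoter table. Those letters are absent from these windows only, and other positions were not searched.

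Values are coverages per gene, divided by 1 factor per library to make the libraries comparable (scaled coverage). Across the series the deposited coverage summed to between 1277305.5 and 1885768.9 per library, and between 14900 and 16231 genes were above 0. Median coverage did not grow with exonic length (29.0, 42.0, 38.9 and 31.9 over 4 bins of genes from the shortest to the longest), so values are read as coverage per base and genes are compared on that scale. Prps2 had a scaled coverage of 103 to 142 in WT and 199 to 292 in Eμ-Myc, and the 4 knockout libraries held 18.2, 16.4, 16.5 and 15.5. Myc averaged 279 ± 52.5 over the WT libraries and 1919 ± 309 over those of Eμ-Myc (SD, n = 4). The 8 B-cell markers were above 1 in all 12 libraries, with a summed scaled coverage of 7393 to 14064 in WT, 8192 to 10404 in Eμ-Myc and 7361 to 7978 in the knockout group. RNA of other cells was present as well. The 8 myeloid markers had the highest sums among the other cell types, 8269 to 25847 in WT, 5812 to 16814 in Eμ-Myc and 1259 to 15274 in the knockout group, and in several libraries they exceeded the B-cell sum (25847 against 7812 in WT library 1). The 9 T-cell markers summed to 453 to 2641 in WT, 93.6 to 133 in Eμ-Myc and 11.9 to 578 in the knockout group. Knockout libraries 3 and 4 stand apart from 1 and 2 in their marker levels, as given below. Results that change when 1 library is left out are given with and without it.

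The comparison of Eμ-Myc with WT sets libraries with the Myc transgene against libraries without it, all from B-cell isolates that also held RNA of other cells. Of the 7 enzymes, 5 rose in Eμ-Myc, 1 fell and 1 did not pass the test. Uck2 rose 5.45-fold, Ctps 4.57-fold, Cad 3.37-fold, Umps 3.27-fold and Dhodh 1.78-fold, while Ctps2 fell to 0.744 of its WT level. Among all 12723 genes tested with limma, 55.7% were called at an adjusted p under 0.05, 29.0% higher and 26.7% lower, and a call is therefore common in this comparison. Higher genes were 52.1% of those called, and 42.0% when libraries were scaled by their total coverage, under which the calls of the 7 enzymes were the same. Groups did not overlap for 5 enzymes with the higher and 1 with the lower values in Eμ-Myc, where this held for 52.0% of all genes, 27.1% higher and 24.9% lower. The sizes lay high in the distribution: the log2 fold changes of Uck2, Ctps, Cad and Umps were above those of 98.0%, 97.3%, 95.6% and 95.3% of tested genes. The median log2 fold change was 1.71 over the 7 enzymes and -0.05 over all genes tested.

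**Figure D1:**
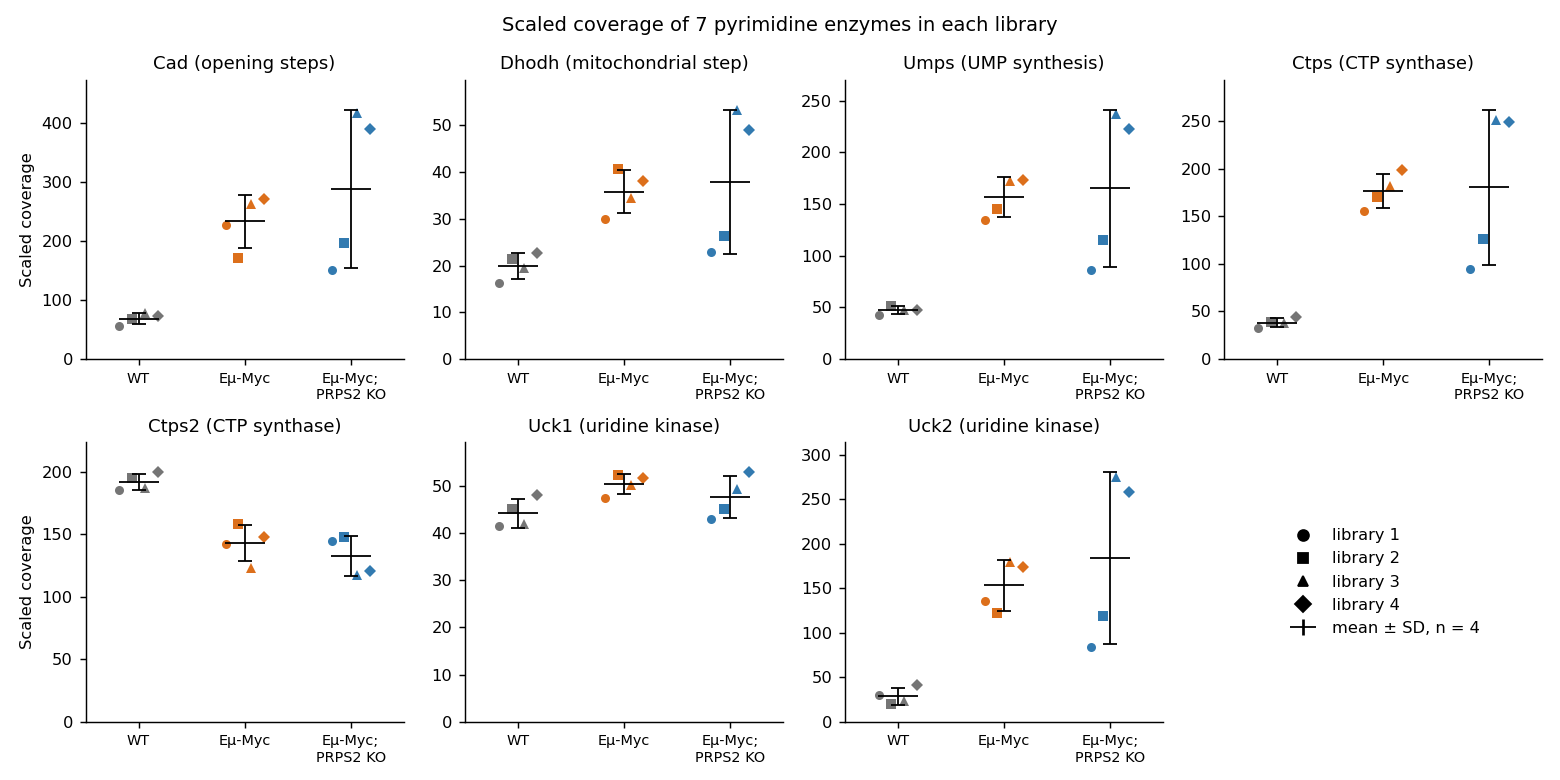
Scaled coverage (y axis, linear, from 0) of the 7 pyrimidine enzymes in each library (marker shapes) of the 3 genotypes (x axis), with mean ± SD of 4 libraries. Cad, Umps, Ctps and Uck2 lie low in WT and far higher in Eμ-Myc. Ctps2 is highest in WT, and Uck1 stays between 41.4 and 52.9. In the knockout group libraries 3 and 4 sit well above libraries 1 and 2 for Cad, Dhodh, Umps, Ctps and Uck2.

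Cad, which commits glutamine, bicarbonate and aspartate to the pyrimidine ring, had a scaled coverage of 55.5, 67.7, 77.3 and 73.3 in WT libraries 1 to 4. In Eμ-Myc libraries 1 to 4 it held 227, 172, 263 and 272. The lowest Eμ-Myc library thus stood far above the highest WT library. The log2 fold change was 1.75 (SE 0.16, limma adjusted p 3.43e-05).

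Dhodh, the mitochondrial enzyme that passes electrons from dihydroorotate to ubiquinone, was the lowest of the 7 in all 3 groups by mean. Its scaled coverage was 16.3, 21.3, 19.4 and 22.7 in WT and 30.0, 40.7, 34.5 and 38.1 in Eμ-Myc. The groups did not overlap, although the gap between them was smaller than for Cad. The log2 fold change was 0.83 (SE 0.14, limma adjusted p 0.00103), the smallest of the 5 increases.

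Umps, whose product completes UMP and uses phosphoribosyl pyrophosphate, had values of 42.8, 51.7, 47.4 and 47.4 in WT. Eμ-Myc libraries 1 to 4 held 135, 146, 172 and 174. With an SD of 3.66 in WT and 19.4 in Eμ-Myc, the difference in means of 47.3 against 156 was far larger than the spread between libraries. Its log2 fold change was 1.71 (SE 0.11, limma adjusted p 5.89e-06).

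The 2 CTP synthases moved in opposite directions. Ctps had 32.5, 39.3, 37.5 and 43.8 in WT and 156, 170, 182 and 198 in Eμ-Myc, which is 2.19 on the log2 scale (SE 0.12, limma adjusted p 3.09e-06). Ctps2 had 186, 195, 187 and 199 in WT, the tightest group of any of these enzymes (coefficient of variation 3.44%). In Eμ-Myc it had 142, 158, 123 and 148, so that all 4 lay below all 4 WT libraries. The log2 fold change of Ctps2 was -0.43 (SE 0.10, limma adjusted p 0.00494).

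The uridine-cytidine kinases differed in the size of their change. Uck2, the form known for high activity in dividing and tumour cells, had 30.0, 19.6, 23.0 and 41.0 in WT, the widest relative spread of the 7 in that group, and 136, 123, 179 and 174 in Eμ-Myc. On the log2 scale it rose by 2.45 (SE 0.23, limma adjusted p 3.57e-05), the largest change of the 7. Uck1, the form of broader tissue distribution, had 41.4, 45.1, 42.0 and 48.2 in WT and 47.5, 52.4, 50.3 and 51.6 in Eμ-Myc. Those ranges overlapped, and the log2 fold change of 0.19 (95% confidence interval -0.02 to 0.40, limma adjusted p 0.104) did not pass. With library quality weights Uck1 did pass (log2 fold change 0.20, limma adjusted p 0.0186).

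**Figure D2:**
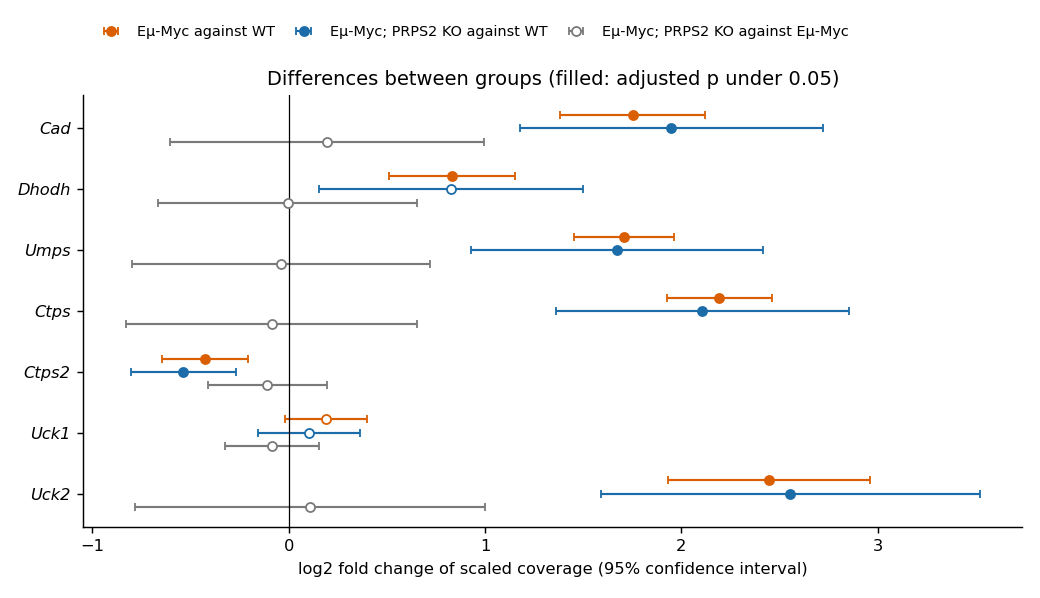
Log2 fold change (x axis) with its 95% confidence interval for each of the 7 enzymes (y axis) in the 3 comparisons, filled where the limma adjusted p is under 0.05. In both comparisons with WT, the estimates for Cad, Umps, Ctps and Uck2 lie above 1 and that for Ctps2 below 0, whereas all 7 intervals of the knockout group against Eμ-Myc span 0.

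In bulk RNA, fewer cells of a type and less RNA per cell cannot be told apart, and the groups also differed in other markers. All 9 T-cell markers and all 6 NK-cell markers were called lower in Eμ-Myc than in WT, all 12 proliferation markers were called higher, and of the 8 B-cell markers 1 was called lower. None of the 8 myeloid markers passed, with a median log2 fold change of -0.39, while their summed coverage averaged 14321 in WT and 9826 in Eμ-Myc. Summed proliferation markers ran from 579 to 763 in WT and from 2856 to 3863 in Eμ-Myc, and the part of these markers in the differences was not tested. WT library 4, with the highest T-cell sum, also held the highest Uck2 value, 41.0. Left out, it gave log2 fold changes for the 7 enzymes with the same calls as before.

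The order of the enzymes by mean coverage per base changed between the genotypes. In WT, Ctps2 was highest at 192 ± 6.59 (SD, n = 4), followed by Cad at 68.4 ± 9.50, Umps at 47.3 ± 3.66, Uck1 at 44.2 ± 3.11, Ctps at 38.3 ± 4.64, Uck2 at 28.4 ± 9.45 and Dhodh at 19.9 ± 2.76. Ctps2 and Cad stood clear of the gene below them, and the ranges of all neighbours from Umps down overlapped. In Eμ-Myc the order was Cad at 234 ± 45.3, Ctps at 177 ± 18.1, Umps at 156 ± 19.4, Uck2 at 153 ± 28.1, Ctps2 at 143 ± 14.8, Uck1 at 50.4 ± 2.15 and Dhodh at 35.8 ± 4.63. The first 5 overlapped their neighbours in range, while Uck1 and Dhodh stood apart below them. The knockout group ran Cad, Uck2, Ctps, Umps, Ctps2, Uck1 and Dhodh, with overlapping ranges between all neighbours except Ctps2 and Uck1.

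The balance within each enzyme pair does not depend on the library factor, because both values come from the same library. Ctps made up 14.9%, 16.8%, 16.7% and 18.0% of the summed coverage of Ctps and Ctps2 in WT libraries 1 to 4. In Eμ-Myc that share was 52.2%, 51.8%, 59.7% and 57.3%. On coverage per base, Ctps2 thus lay above Ctps in every WT library and below it in every Eμ-Myc library. The margin was small in Eμ-Myc libraries 1 and 2. Reading the values as per base was itself an inference, so which transcript prevailed in those libraries is uncertain. The log2 ratio of Ctps to Ctps2 rose by 2.64, a 6.22-fold shift (exact two-sided permutation test over 70 arrangements, p 0.0286, the smallest it can give, Benjamini-Hochberg adjusted p 0.0429 over 6 tests). The sum of both transcripts moved less, from 230 ± 11.0 to 320 ± 22.1 (SD, n = 4).

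Uck2 made up 42.0%, 30.3%, 35.4% and 46.0% of the summed kinase coverage in WT libraries 1 to 4. The Eμ-Myc libraries held 74.1%, 70.1%, 78.1% and 77.2%. On these values Uck1 prevailed in every WT library and Uck2 in every Eμ-Myc library, a 4.84-fold shift of the ratio (exact two-sided permutation p 0.0286, adjusted 0.0429). Here the sum rose with the shift, from 72.6 ± 11.5 to 203 ± 28.3 (SD, n = 4). The Uck1 values carry the uncertainty from sequence shared with Gm4482 and Umpk-ps given above. In WT library 4, with 48.2 for Uck1 and 41.0 for Uck2, it is therefore uncertain which of them prevailed.

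**Figure D3:**
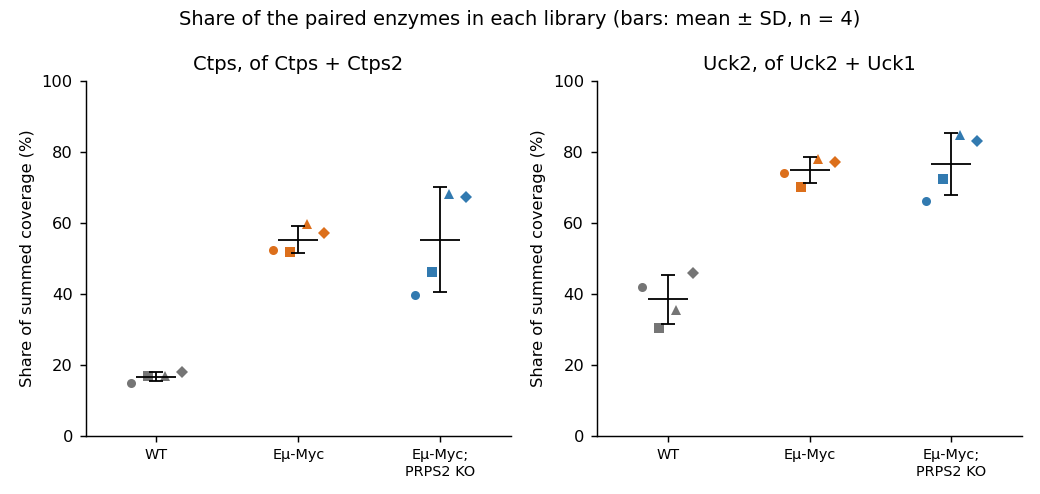
Share (y axis, percent) of Ctps in the summed coverage of Ctps and Ctps2, left, and of Uck2 in that of Uck2 and Uck1, right, in each library of the 3 genotypes, with mean ± SD of 4 libraries (circle, square, triangle and diamond are libraries 1 to 4). Every WT library lies below 50% in both panels; all Eμ-Myc libraries lie above it, and knockout libraries 1 and 2 lie below it for Ctps only.

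The second comparison addresses loss of PRPS2 in the presence of the transgene. None of the 7 enzymes passed in the knockout group against Eμ-Myc. The limma test called 1 of 12537 genes (0.00798%), and it was Prps2 itself, with a log2 fold change of -3.84 (adjusted p 1.84e-05). Before adjustment, 152 genes and 0 of the 7 enzymes were under 0.05. None of the 7 had groups that did not overlap, where 1.68% of all genes did, 0.399% higher and 1.28% lower. With library quality weights, 5 of the 7 enzymes (Cad, Dhodh, Umps, Ctps and Uck2) and 6984 of all genes were called. That fit gave knockout libraries 1 and 2 weights of 0.0851 and 0.130, and libraries 3 and 4 weights of 3.08 and 8.60.

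Differences of moderate size are not excluded by these 4 against 4 libraries. The 95% confidence interval of the fold change ran from 0.659 to 2.00 for Cad, 0.631 to 1.57 for Dhodh, 0.576 to 1.64 for Umps and 0.563 to 1.57 for Ctps. It ran from 0.581 to 2.00 for Uck2. The steadier genes gave narrower limits, 0.752 to 1.14 for Ctps2 and 0.797 to 1.11 for Uck1. The Ctps share of the CTP synthase pair averaged 55.3% ± 3.84 in Eμ-Myc against 55.3% ± 14.7 in knockout libraries (SD, n = 4, exact two-sided permutation p of the log2 ratio 1.00). The Uck2 share averaged 74.9% ± 3.62 and 76.6% ± 8.82 (SD, n = 4, exact two-sided permutation p 0.600, adjusted 0.720).

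What set the knockout group apart in these values was the spread between its libraries. Cad had 152, 196, 417 and 390 in knockout libraries 1 to 4. Dhodh had 23.0, 26.3, 53.3 and 49.1 in the same order. In both genes libraries 3 and 4 exceeded all 4 Eμ-Myc libraries. Umps had 85.8, 115, 237 and 223, Ctps had 94.8, 126, 252 and 249, and Uck2 had 84.0, 119, 274 and 258. For these 3 genes and for Dhodh, libraries 1 and 2 lay below, and libraries 3 and 4 above, every Eμ-Myc library, while of Cad library 1 alone lay below. Ctps2 ran the other way with 145, 148, 117 and 121, and Uck1 had 43.0, 45.2, 49.4 and 52.9. Between the highest and the lowest knockout library the ratio was 2.75 for Cad, 2.77 for Umps, 2.65 for Ctps and 3.27 for Uck2, against 1.58, 1.29, 1.27 and 1.46 in Eμ-Myc.

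Other measures were ordered by the same libraries. Myc itself had 1091, 1654, 2907 and 3142 in knockout libraries 1 to 4. Their summed proliferation markers were 1664, 2235, 4670 and 4697. Both measures were thus lower in libraries 1 and 2 and higher in libraries 3 and 4, like Cad. T-cell markers summed to 538, 578, 13.6 and 11.9 and myeloid markers to 15274, 11042, 2907 and 1259, which is the opposite order. Within the T-cell list, 3 of 9 markers were above 1 in all 4 knockout libraries, and no gene of the list was at 0 in all of them. The summed B-cell markers differed little, at 7911, 7978, 7361 and 7598. The part of these measures in the spread of the pyrimidine enzymes was not tested.

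Set against WT, the knockout group had 5 of the 7 enzymes called, 4 higher and 1 lower, where the limma test called 31.4% of 12671 genes, 17.2% higher and 14.3% lower. Uck2 rose 5.88-fold (adjusted p 0.0120), Ctps 4.31-fold (0.0116), Cad 3.86-fold (0.0126) and Umps 3.18-fold (0.0165), and Ctps2 fell to 0.689 of its WT level (0.0216). Dhodh had a fold change of 1.77 with groups that did not overlap, but did not pass (limma adjusted p 0.0596), and Uck1 had 1.08 (0.456). Groups did not overlap for 5 enzymes with higher and 1 with lower values, against 38.7% of all genes, 19.5% higher and 19.1% lower. In this comparison all 12 proliferation markers were called higher (median log2 fold change 2.82), all 4 platelet markers lower and 1 of 8 B-cell markers lower. None of the 9 T-cell, 6 NK-cell or 8 myeloid markers passed, with median log2 fold changes of -3.281, -2.545 and -1.276. The part of these markers in the enzyme differences was not tested. Both comparisons with WT use the same 4 WT libraries and are not independent.

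Some of these calls were lost when 1 library was left out. Leaving out 1 library, the number of enzymes called ran from 3 to 6, and it was 3 without WT library 1, 2 or 3 or knockout library 4. Those 4 fits called 841, 448, 556 and 525 genes in all, where the 8 libraries together gave 3985. Higher genes were 54.7% of those called with 8 libraries and 78.1%, 91.7%, 87.8% and 86.5% in the same 4 fits. The call of Umps was lost without any of those 4, at limma adjusted p values of 0.0502 to 0.0557, and the call of Ctps2 was lost without any 1 WT library or knockout library 3 or 4, at 0.0514 to 0.0706. With the replicate number as a block, the adjusted p of Ctps2 was 0.0546. Dhodh passed without knockout library 1 (adjusted p 0.0169) or 2 (0.0470), with a filter of 10 in every library (0.0459) and with all 12 libraries in 1 fit (0.0224). Uck2, Ctps and Cad kept their calls in each of these fits. The ratio of Ctps to Ctps2 was 6.32-fold and that of Uck2 to Uck1 5.55-fold above WT (exact two-sided permutation p 0.0286, adjusted 0.0429 for each).

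Across the 8 libraries that carry the transgene, enzyme levels were set against Myc, a relation chosen after the values were seen. On the scale log2(scaled coverage + 0.5), Pearson's r with Myc was 0.985 for Uck2 (adjusted exact permutation p 5.21e-04 over 7 genes), 0.966 for Cad (5.21e-04), 0.958 for Umps (0.00116) and 0.938 for Ctps (0.00143). Spearman's rho was 0.952, 0.952, 0.881 and 0.881 in that order, with adjusted exact permutation p of 0.00399, 0.00399, 0.0127 and 0.0127. Without the 2 libraries farthest from the median of Myc, knockout libraries 3 and 4, r was 0.977, 0.932, 0.918 and 0.874, with adjusted exact permutation p of 0.00972, 0.00972, 0.0324 and 0.0389. For those 4 genes the adjusted p thus stayed under 0.05 without these 2 libraries, and also without any 1 library. Knockout library 1, the lowest of the 8 in Myc and in each of these 4 enzymes, was kept when the 2 were left out. Leaving out all 3 was not tried, and how common such r values are among all genes without the 2 was not examined. The permutations treat the 8 libraries as exchangeable and take account of neither genotype nor replicate number. Libraries 3 and 4 exceeded libraries 1 and 2 in both genotypes for Myc and for each of these 4 enzymes, so the p-values may be too small.

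Dhodh had r of 0.845 (adjusted exact permutation p 0.0130) and rho of 0.714 (0.0672). Ctps2 had r of -0.799 (0.0185) and rho of -0.738 (0.0642). Without knockout libraries 3 and 4 these r values were 0.634 (adjusted exact permutation p 0.198) and -0.51 (0.285), so neither call held without that pair. Leaving out 1 library, r of Dhodh ran from 0.745 without knockout library 1 (adjusted exact permutation p 0.0685, the only such loss) to 0.943 without Eμ-Myc library 2 (0.00278). That of Ctps2 ran from -0.734 without knockout library 3 (0.0538) to -0.925 without knockout library 1 (0.00741), and its call was also lost without knockout library 4 (0.0611). Uck1 had r of 0.686 (adjusted exact permutation p 0.0616) and rho of 0.548 (0.171). The Uck1 value depended on the setting: r was 0.835 with median-of-ratios scaling (adjusted exact permutation p 0.0108), 0.877 without Eμ-Myc library 2 (0.0109) and 0.328 with total coverage scaling (0.426). Such values were common in these libraries: 21.5% of 12537 genes had an absolute r with Myc of at least 0.9. The value of Uck2 was exceeded by 0.215% of genes, that of Cad by 2.54%, that of Umps by 4.15% and that of Ctps by 9.59%. For Dhodh, Ctps2 and Uck1 the shares were 36.3%, 45.4% and 60.4%, so their values were ordinary in these libraries. The relation within each genotype, of 4 libraries, was not tested, and the marker sums given above vary along the same libraries.

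**Figure D4:**
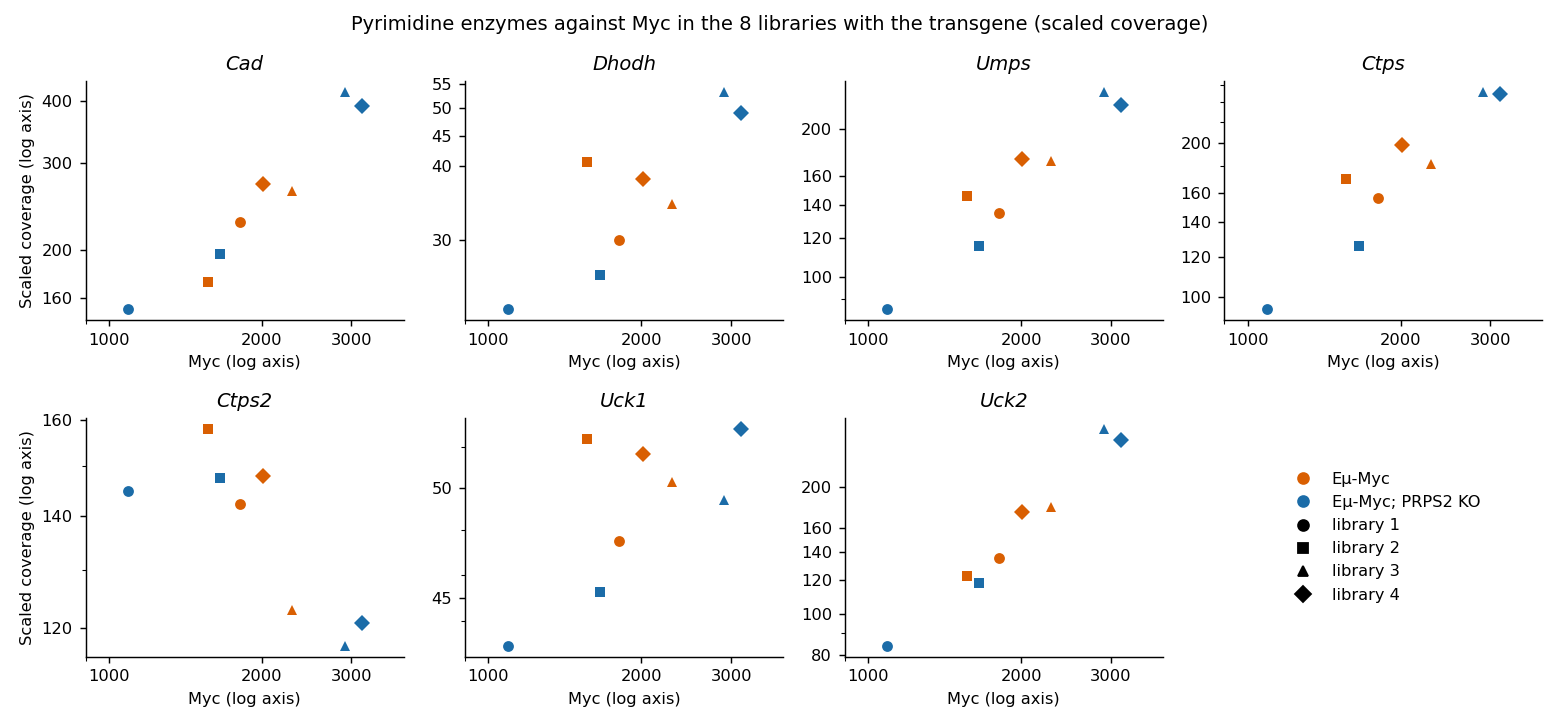
Scaled coverage of each enzyme (y axis, logarithmic) against that of Myc (x axis, logarithmic) in the 4 Eμ-Myc (orange) and 4 knockout (blue) libraries, with libraries 1 to 4 as circle, square, triangle and diamond. Cad, Umps, Ctps and Uck2 climb with Myc from knockout library 1 at the lower left to knockout libraries 3 and 4 at the upper right, Ctps2 runs downward, and Uck1 and Dhodh scatter more.

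The enzymes that rose also varied together over all 12 libraries, a description that includes the difference between genotypes. Pearson's r of log2 values was 0.993 between Umps and Ctps, 0.984 between Cad and Umps, and 0.980 both between Cad and Ctps and between Ctps and Uck2. The 4 values with Dhodh were lower, from 0.895 with Uck2 to 0.945 with Umps. Among 10356 genes averaging 5 or more, without symbols of the Gm or Rik type, the 3 whose pattern was most like that of Cad were Polr1b, Pfas and Gnl2 (each r 0.997). Those most like Umps were Zmynd19 (0.999), Nsun2 and Eif3b (each 0.998), and those most like Ctps were Gnl3 (0.999), Dkc1 and Cth (each 0.998). Uck2 was closest to Bora (0.998), Slc35f2 and Slc7a5 (each 0.997), and Dhodh to Fkbp3, Pdcd2 and Coq6 (each 0.993). The steadier genes had less close partners, which were Anks3 (0.974), Clec2d and BC147527 (each 0.972) for Ctps2, and H2-T-ps (0.963), Apex2 (0.955) and Rpl19 (0.952) for Uck1.

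Around the 7 enzymes, 46 other genes of pyrimidine metabolism were listed, of which 38 passed the filter in Eμ-Myc against WT. Of these 16 were called higher and 7 lower, and 15 did not pass, where 29.0% of all genes were called higher and 26.7% lower. Their median log2 fold change was 0.22, against -0.05 over all genes tested. Against Eμ-Myc, the knockout libraries had 1 of the 38 called, which was Prps2 (25 with library quality weights), and against WT 12 were called higher and 5 lower, where 17.2% and 14.3% of all genes were. Together these 17 became 3 without WT library 2 or 3 and 32 with library quality weights, fits that called 448, 556 and 10623 genes in all.

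The salvage and transport list, with 9 of 13 genes tested, had 3 genes higher, 3 lower and 3 not passing in Eμ-Myc against WT, shares near the 29.0% and 26.7% of all genes. Slc29a1, the equilibrative transporter that carries uridine across the plasma membrane, had 168 to 200 in WT, 590 to 747 in Eμ-Myc and 398, 485, 993 and 948 in the knockout libraries. No Eμ-Myc or knockout library overlapped WT, and the log2 fold change came to 1.91 in Eμ-Myc (SE 0.10, limma adjusted p 3.24e-06) and 1.85 in the knockout group (adjusted p 0.0120) against WT. Slc29a2, a second equilibrative transporter of low level here, rose by a log2 fold change of 1.23, from a mean of 2.66 to 6.83. Nt5c3b, a nucleotidase of the cytosol, rose by 0.56 with overlapping groups. Its call was lost without WT library 1 or 3 or Eμ-Myc library 3 or 4 (limma adjusted p 0.0558 to 0.0657). It was also lost with total coverage scaling (limma adjusted p 0.0718) and with all 12 libraries in 1 fit (0.0595).

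Slc28a2, a sodium-coupled nucleoside carrier that favours purine nucleosides and uridine, went the other way. It had 191 to 198 in WT, 66.1 to 103 in Eμ-Myc and 143, 121, 25.0 and 28.9 in the knockout libraries. In Eμ-Myc it fell by 1.27 on the log2 scale (SE 0.13, limma adjusted p 5.20e-05). That call was lost with all 12 libraries in 1 fit (limma adjusted p 0.0541). In the knockout group its log2 fold change against WT was -1.69 (limma adjusted p 0.0541). There it passed without knockout library 1 (limma adjusted p 0.0146) or 2 (0.0382) and with a filter of 10 (0.0420). It also passed with all 12 libraries in 1 fit (limma adjusted p 0.0182) and with library quality weights (1.84e-06), but not in the other 12 of 17 alternatives. Uckl1, a relative of the uridine kinases, had 69.4 to 78.5 in WT and 34.8 to 47.7 in Eμ-Myc, a log2 fold change of -0.86 (adjusted p 3.94e-04). Nt5e, the ecto-enzyme that releases nucleosides from nucleoside monophosphates outside the cell, fell by 1.73 on the log2 scale (limma adjusted p 0.00581). Its mean was 9.44 in WT and 2.11 in Eμ-Myc. The WT libraries ran from 3.60 to 18.0, highest in library 4, which also had the highest T-cell sum. With all 12 libraries in 1 fit this call was lost (limma adjusted p 0.0745). Of the breakdown list 1 of 4 genes was tested, Upb1, and it did not pass (log2 fold change 0.43, limma adjusted p 0.132).

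The list of kinases that carry UMP and CMP on to the triphosphates had 6 of 8 genes called higher and 1 lower, against 29.0% and 26.7% of all genes. Nme4, the mitochondrial nucleoside diphosphate kinase, had 8.24 to 11.0 in WT and 48.1 to 71.0 in Eμ-Myc, a difference of 2.63 in log2 (SE 0.16, limma adjusted p 4.09e-06). Nme1, a main nucleoside diphosphate kinase of the cytosol, had 135 to 156 in WT and 362 to 562 in Eμ-Myc, a log2 fold change of 1.72 (adjusted p 1.66e-05). Nme6 rose by 1.35. Cmpk2, a mitochondrial UMP-CMP kinase induced by interferon, fell by 0.56 on the log2 scale (adjusted p 0.0122) with groups that overlapped by a small margin, from 19.4 to 27.7 in Eμ-Myc and from 27.6 to 40.4 in WT. Its call was lost with all 12 libraries in 1 fit (limma adjusted p 0.0716).

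Of the 9 enzymes on the routes that turn UTP and CTP into UDP-sugars, CMP-sialic acid and CDP-lipids, 0 were called higher, 3 lower and 6 neither, and 3 of 9 is near the 26.7% of all genes called lower. Those called were Ugp2, which makes UDP-glucose from UTP (log2 fold change -0.46), and a pair that does not itself use UTP or CTP, Ugdh, which oxidises UDP-glucose (-0.38), and Gfpt1, which makes the hexosamine that later enters UDP-GlcNAc (-0.71), at limma adjusted p of 0.0204, 0.0308 and 0.0120. The calls of Ugp2 and Ugdh were lost without Eμ-Myc library 3 (0.0583 and 0.0810) or 4 (0.0611 and 0.0656), and that of Ugdh also without WT library 1 (0.0529) or Eμ-Myc library 1 (0.0505). With all 12 libraries in 1 fit the calls of Gfpt1 and Ugdh were lost (limma adjusted p 0.0502 and 0.0746). The substrate list, with 7 of 11 tested genes called higher and 0 lower against 29.0% and 26.7% of all genes, held Prps1, a synthetase of the phosphoribosyl pyrophosphate that Umps uses, with a log2 fold change of 1.60 (limma adjusted p 2.09e-05). The aspartate aminotransferases Got1 and Got2, which make the aspartate that Cad consumes, rose by 1.39 (adjusted p 6.73e-06) and 1.04 (adjusted p 3.95e-05).

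**Figure D5:**
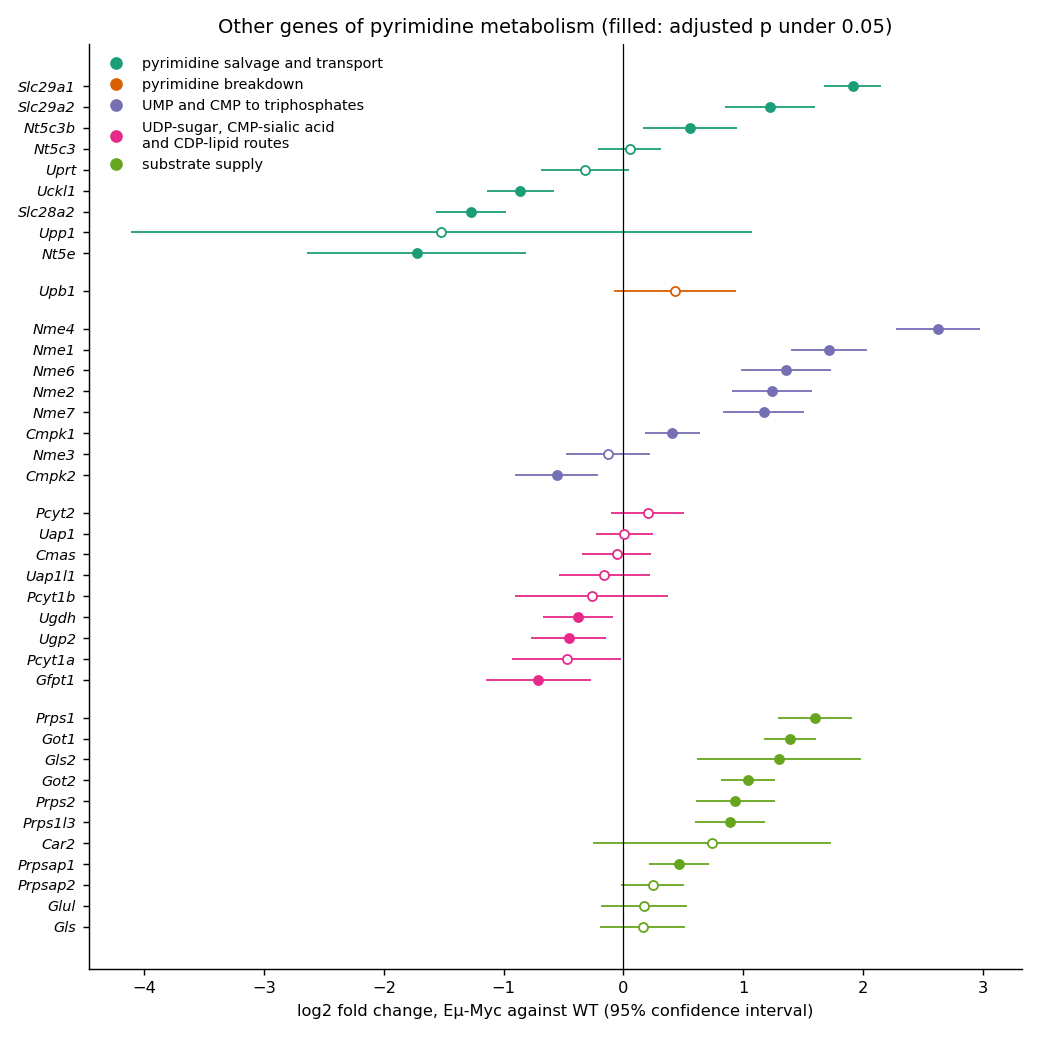
Log2 fold change in Eμ-Myc against WT (x axis) with its 95% confidence interval for the 38 other tested genes of pyrimidine metabolism (y axis), coloured by list and filled where the limma adjusted p is under 0.05. Filled points lie on both sides of 0 in the salvage and transport list, mostly to the right in the kinase and substrate lists, and to the left in the list of UDP-sugar, CMP-sialic acid and CDP-lipid routes (Gfpt1, Ugp2 and Ugdh).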

How the data were processed

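B lymphocytes of mouse spleen were profiled as polyadenylated RNA in 12 libraries, 4 per genotype, made with a directional kit, per the labels. The authors deposited 1 table per library with the coverage of 24982 gene symbols, a signal with 1 decimal, of which 6705 symbols were at 0 in every library. Among values above 0, 91.6% were not whole, so read depth is unknown, no count-based test or counting interval was possible, and precision comes from the spread between libraries. The submitters' processing notes name mm10, DESeq and R 4.3.3 without their role; the aligner, the annotation and the treatment of multiply mapped reads are not given in the sources used here.

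Libraries were scaled by unweighted trimmed means of log ratios (trimming at each end 30% of the ratios and 5% of the means, over genes at 1 or more in both libraries). Genes at 1 or more in at least 4 of the 8 libraries of a comparison were tested with limma 3.58.1 (trend and robust options, R 4.3.3) on log2(scaled coverage + 0.5); fold changes are on that scale, and those of low genes are understated. P-values were two-sided and adjusted by Benjamini-Hochberg over all genes of the comparison, and genes under 0.05 were called. The code was tested on simulated data. Enzyme ratios were compared by exact permutation tests adjusted over 6. Tables and figures used Python 3.11.15 and the packages matplotlib 3.10.9, scipy 1.17.1, pandas 2.3.3 and numpy 2.4.6.

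The 7 enzymes and all gene lists were chosen with earlier results of these data known. From each list of other pathway genes, up to 3 called genes per direction in Eμ-Myc against WT averaging 5 or more were named; any others, such as those of the closing section, were picked with their values in view. Lists covered salvage and transport, breakdown, kinases to triphosphates, routes to UDP-sugars, CMP-sialic acid and CDP-lipids, substrate supply, and markers of B, T, NK, myeloid, erythroid, platelet and plasma cells and of proliferation. Erythroid markers had no member called in any comparison, platelet markers had 1 of 4 lower in Eμ-Myc and 4 of 4 lower in the knockout group against WT, and plasma cell markers had 2 of 5 lower in Eμ-Myc against WT. Myeloid markers had no member called.

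Replicate numbers 1 to 4 recur in each genotype. Between the knockout group and Eμ-Myc, libraries of one number deviated from the group mean together, with r across genes of 0.639, 0.187, 0.243 and 0.598, all over 0.1, so an alternative treated these as pairs; only the values, not the labels, pair them. Alternatives were other scalings, pseudocounts of 0.1 and 2, no filter, a filter of 10, all 12 libraries in 1 fit, a replicate block, library quality weights and leaving out each library. Promoter bases are from RefSeq (GRCm38.p6), and 6 of the 7 enzymes matched by symbol.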

Additional observations from a re-analysis of the deposited data

Results flagged for a closer look

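Of 144 groups of 4 libraries examined, for the 7 enzymes, their shares, Prps2, Myc and the other tested pathway genes, 4 held a library far from the other three; a test at this level picks out about 1 group in 20 by chance, and none of the 4 concerned one of the 7 enzymes. Upp1, the uridine phosphorylase, had a scaled coverage of 107 in WT library 1, where the other WT libraries ranged from 2.25 to 5.11. In Eμ-Myc library 1, Nt5e had 2.72 against 1.84 to 1.95 in the others. Uap1, which makes UDP-GlcNAc, had 77.2 in WT library 4 against 98.1 to 101. Cmas, which makes CMP-sialic acid, had 63.0 in Eμ-Myc library 1 against 65.6 to 65.8. The causes were not tested.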

How the results depend on the processing

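In Eμ-Myc against WT the number of the 7 enzymes called was 6 or 7 under all 17 alternatives, and directions did not change. Over the same fits all genes called numbered 4892 to 8997, and the count of 7 came with quality weights, as did the 8997. When total coverage set the scale, all genes had a median of -0.185 in place of -0.046, and the 7 enzymes had the same calls. With all 12 libraries in 1 fit the calls of Nt5c3b, Nt5e, Slc28a2, Cmpk2, Gfpt1 and Ugdh were lost (adjusted p 0.0502 to 0.0746).

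In the knockout group against Eμ-Myc 0 of the 7 were called except with library quality weights, where 5 were, among 6984 genes against 1. The values near 0 changed sign with the setting. With median-of-ratios scaling Dhodh was at 0.066 and Umps at 0.0323, and with total coverage at 0.0692 and 0.0359. The quality weights, whose fit stopped before full convergence, gave Dhodh 0.4998, Umps 0.429, Ctps 0.4403 and Uck1 0.0432. Leaving out 1 library gave -0.0229 to 0.4627 for Cad, -0.1983 to 0.1998 for Dhodh, -0.2556 to 0.232 for Umps, -0.2881 to 0.1797 for Ctps, -0.1405 to 0.4266 for Uck2, -0.1288 to 0.3796 for Myc, -0.2365 to 0.3357 for the log2 ratio of Ctps to Ctps2 and -0.0359 to 0.4659 for that of Uck2 to Uck1. In each, the lowest value came without knockout library 3 or 4 and the highest without knockout library 1. The cause was not tested.

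In the knockout group against WT the number of the 7 called ran from 3 to 6 without 1 library, and was 7 with quality weights. All genes called numbered 3985; without 1 library the count ran from 448 (WT library 2) to 6826 (knockout library 1), and it was 1784 with the replicate block, 6130 with all 12 libraries and 10623 with quality weights. The calls of the other pathway genes moved likewise, from 17 to between 3 and 25 without 1 library and to 10 with the replicate block.

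With the replicate number as a block the exact sign-flip test over 4 pairs cannot go below p 0.125 (adjusted 0.188). It gave the same log2 ratios, 2.64 (Eμ-Myc) and 2.66 (knockout group) for Ctps to Ctps2 and 2.28 and 2.47 for Uck2 to Uck1, against WT. In limma the block ended the calls of Ctps2, Nme6 and Got2 in the knockout group against WT and no other call of a named gene. In the comparisons with WT the libraries share only a number: same-numbered deviations correlated with r of 0.224, -0.0976, 0.25 and 0.128 for Eμ-Myc and 0.391, -0.409, 0.135 and -0.0604 for the knockout group. Without a known read depth, no limit of detection can be given.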
